A study of Mus musculus with 20 samples.

Results

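The Hox genes of 2 mouse hind limb muscles, soleus and gastrocnemius, were read across freely moving and unloaded animals. Members were all noncontrol probes whose array gene name was a Hox name of cluster A, B, C or D followed by a number, with the brightest probe taken for each gene by its mean over all 20 arrays. The rule found 38 Hox genes among 27962 gene names, with 11 in cluster A, 10 in B, 8 in C and 9 in D. Of these, 37 exceeded background clearly in some group, on 4 arrays or more of its 5, and were tested among 25535 gene names in all. Hoxc11 was not analysed here.

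Hox genes encode homeodomain transcription factors that give cells along the head-to-tail axis and along the limb their positional identity. They lie in 4 clusters in the order in which they act along the body, from paralog group 1 at the 3′ end, used near the head, to group 13 at the 5′ end, used at the tail and the tips of the limbs. Genes of the same paralog group in different clusters arose by duplication and often act alike. The A and D genes of groups 9 to 13 pattern the limb skeleton from thigh to foot, and adult muscle, connective tissue and satellite cells keep a record of their origin in Hox expression.

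All animals were male ICR mice (an outbred strain) aged 6 months, randomly assigned to free ambulation in the cage or to hind-limb suspension (HLS) for 24 h, in which the tail was tethered so that the body hung head-down at 45 degrees with the hind limbs off the ground. Soleus, a small slow postural muscle, and gastrocnemius, a larger mixed fast muscle, were taken from each of 10 animals, 5 per arm, which gave 4 groups of 5 arrays: gastrocnemius control, gastrocnemius HLS, soleus control and soleus HLS. The control animals and the suspended animals were different mice. Muscles of the same arm and replicate number were taken as the same animal. Each array held the labelled RNA of 1 whole muscle, so a lower level cannot be told apart from fewer cells of the type that makes the transcript.

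A level below is the base-2 logarithm of a probe's processed Agilent signal minus the 75th percentile of its array, so a difference of 1 between groups is a change of 2-fold. Levels of different probes are not compared, because probes differ in how brightly they bind. The 75th percentile of intensity lay between 385.5 and 736.1 and 80.48% to 92.97% of probes were well above background, with 34 to 37 Hox genes well above it on each array. Replicate arrays of a group correlated at 0.9713 to 0.9881 over 40 pairs. Each slide held arrays of 1 muscle, so slide and muscle cannot be told apart. The arms of soleus shared only 1 slide, which held soleus control 5 and soleus HLS 1 to 3. Scan days were also uneven: day 1 held all gastrocnemius controls and gastrocnemius HLS animal 1, day 2 held gastrocnemius HLS 2 to 5, all soleus controls and soleus HLS 1 to 3, and day 3 held soleus HLS 4 and 5.

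Marker genes matched the labelled muscles: all 7 slow fibre genes tested, among them myosins and troponins of slow fibres, were higher in soleus, and 6 of 9 fast fibre genes were lower. Over all genes 20.7% were higher and 28.3% lower in soleus. Markers of other cell types differed between the muscles too. All 7 adipocyte genes were higher in soleus (mean level per array 0.83 to 1.31 in control gastrocnemius and 2.29 to 3.88 in control soleus), as were 7 of 14 fibroblast, 7 of 9 smooth muscle, 5 of 9 endothelial and 4 of 9 tendon genes. Of 9 Schwann cell and nerve genes 3 were lower, a share near that of all genes. Of 7 satellite cell and 7 macrophage genes 2 each were higher, and of 4 blood cell genes 0 were called. Of 4 keratinocyte and bone genes 2 were lower. Their mean level per array ran from -1.86 to -1.68 in control and -1.83 to 0.61 in suspended gastrocnemius. In soleus it ran from -2.02 to -1.67 in controls and -2.14 to -0.57 after suspension. No member of these lists went the other way except 2 fast fibre genes, which were higher in soleus. With quantile normalization 4 fibroblast genes were higher, and 1 tendon and 1 smooth muscle gene were lower. With scan day as a block in the fit, 6 adipocyte, 5 endothelial, 2 fibroblast, 2 smooth muscle and 0 tendon genes were higher. Under that block all 7 slow fibre genes stayed higher, while 2 fast fibre genes were lower and 2 higher. Of the Schwann cell and nerve genes 1 was lower. The part of these cell types in the Hox differences was not tested.

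The promoters of Hoxa2, Hoxd10, Hoxd11 and Hoxd13, whose levels separated the muscles within each arm, are shown from the RefSeq promoter table (build GRCm38.p6). Each run is the 250 bases before the transcription start, 5′ to 3′ on the gene's strand, and capitals mark matches on either strand to 4 motifs: TATAAA, which binds the basal machinery, CCAAT, a common promoter element, TAATTA, a core site of homeodomain proteins, and TGATTNAT, a composite site of Pbx with Hox proteins. None of these motifs lies within another. Hoxa2 lies at chr6:52164832-52165081 on the minus strand. The others are on the plus strand: Hoxd10 at chr2:74691641-74691890, Hoxd13 at chr2:74667975-74668224 and Hoxd11, which has 2 annotated starts, at chr2:74679308-74679557 and chr2:74682073-74682322.
Hoxa2: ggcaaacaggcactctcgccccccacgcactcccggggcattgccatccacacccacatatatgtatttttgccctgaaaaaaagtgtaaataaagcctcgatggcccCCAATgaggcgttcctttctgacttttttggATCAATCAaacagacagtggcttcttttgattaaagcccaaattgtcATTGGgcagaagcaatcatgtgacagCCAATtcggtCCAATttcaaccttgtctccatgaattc
Hoxd10: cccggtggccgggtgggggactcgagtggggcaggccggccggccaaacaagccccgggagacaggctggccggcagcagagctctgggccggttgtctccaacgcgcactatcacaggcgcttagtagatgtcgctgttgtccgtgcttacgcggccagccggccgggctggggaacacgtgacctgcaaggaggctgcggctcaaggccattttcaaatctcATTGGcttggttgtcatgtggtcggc
Hoxd11, upstream start: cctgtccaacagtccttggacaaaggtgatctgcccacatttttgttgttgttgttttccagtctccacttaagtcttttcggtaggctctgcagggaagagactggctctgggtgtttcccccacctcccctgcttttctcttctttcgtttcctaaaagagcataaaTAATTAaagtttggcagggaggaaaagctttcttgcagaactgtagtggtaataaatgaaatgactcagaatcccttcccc
Hoxd11, downstream start: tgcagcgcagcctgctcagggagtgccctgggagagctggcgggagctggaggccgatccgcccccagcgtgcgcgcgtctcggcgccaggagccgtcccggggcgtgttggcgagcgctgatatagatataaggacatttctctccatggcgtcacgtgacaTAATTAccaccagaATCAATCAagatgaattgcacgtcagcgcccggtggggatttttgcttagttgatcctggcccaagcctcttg
Hoxd13: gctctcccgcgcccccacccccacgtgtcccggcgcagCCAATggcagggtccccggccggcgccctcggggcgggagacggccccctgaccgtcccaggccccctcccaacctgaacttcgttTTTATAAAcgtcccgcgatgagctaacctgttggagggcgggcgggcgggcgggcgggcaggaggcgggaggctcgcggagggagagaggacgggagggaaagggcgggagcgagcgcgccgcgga

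TAATTA stood once in each Hoxd11 window, and the downstream window also held a TGATTNAT match, as did Hoxa2. Over all 32851 promoters of the table, cut to the same length, 4.84% held TAATTA and 2.82% held TGATTNAT, against 2 and 2 of the 24 Hox promoters. CCAAT matched 14 of the 24 Hox promoters and 33.8% of all promoters, and 4 times in Hoxa2 alone. TATAAA matched 4 Hox promoters and 12.4% of all, with 2 overlapping matches in Hoxd13. The GC content of the windows was 46.4% for Hoxa2, 65.6% for Hoxd10, 44.8% and 60.4% for Hoxd11 and 74.4% for Hoxd13, beside a median of 52.4% over all promoters and 58.6% over the Hox promoters. A match describes letters only and says nothing of binding.

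Detection came before any comparison. Of the 38 genes, 32 were well above background on all 20 arrays. Hoxb1, which patterns the hindbrain and its facial motor neurons, was above background on 0 arrays and was not tested. Hoxd11 was above it on all 10 gastrocnemius arrays but on 4 of 10 soleus arrays, 2 in each soleus group. Hoxc8 passed on 14 arrays, Hoxc13 on 15, Hoxc12 on 18 and Hoxa6 on 19, where the missing array (soleus control 5) had a spot marked as an outlier and was dropped from the Hoxa6 fit. The rule for testing can pass a gene through the group where it is high, as it did for Hoxd11, so the counts below describe the genes that passed.

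The comparison of soleus with gastrocnemius asks whether a slow and a fast muscle of the same limb keep different Hox transcripts. Averaged over the 2 arms, 21 of the 37 Hox genes differed by limma's moderated test at an adjusted p under 0.05 (Benjamini-Hochberg over all genes), 7 higher and 14 lower in soleus. Over all genes tested, 49.1% passed the same test, 20.7% higher and 28.3% lower, so a share of 56.8% among Hox genes lay near the background. The median difference of the Hox genes was -0.15 on the log2 scale, beside -0.04 for all genes. In the control arm 14 Hox genes passed (5 higher, 9 lower), where 33.5% of all genes did (12.6% higher, 20.9% lower). In the HLS arm 13 passed (2 higher, 11 lower), where 30.9% did (13.3% higher, 17.7% lower). The 9 genes that passed in both arms had the same direction in both. Without overlap between the muscles, 1 Hox gene was higher and 9 were lower in controls, where 8.25% and 13.4% of all genes were, and 7 were lower after HLS, where 9.79% of all genes were.

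The split is set here beside the level of the genes. Over all genes, dim genes were more often lower in soleus and bright genes more often higher: 36.1% were lower and 10.9% higher in the dimmest of 4 equal classes of mean level, 37.0% and 12.1% in the next, 26.2% and 19.5% in the next, and 14.1% and 40.3% in the brightest. The Hox genes sat mostly in the middle, with 6, 16, 12 and 3 of them from the dimmest to the brightest class. Their lower and higher calls in that order were 3 and 1, 7 and 3, 4 and 1, and 0 and 2. The part of level in the split was not tested. The 7 and 14 split also moved with the scaling, to 10 higher and 11 lower with quantile normalization and to 12 and 11 with scaling to each array's median, while normexp background correction left it at 7 and 14. In the control arm the split of 5 and 9 became 6 and 7, 7 and 6, and 2 and 10 under the same 3 treatments, and in the HLS arm 2 and 11 became 6 and 9, 10 and 8, and 3 and 8. Scaling to the spike-in RNA would move every soleus minus gastrocnemius difference by 0.54 in the mean of the arms (1.06 in controls and 0.02 after HLS), all genes alike.

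**Figure D1:**
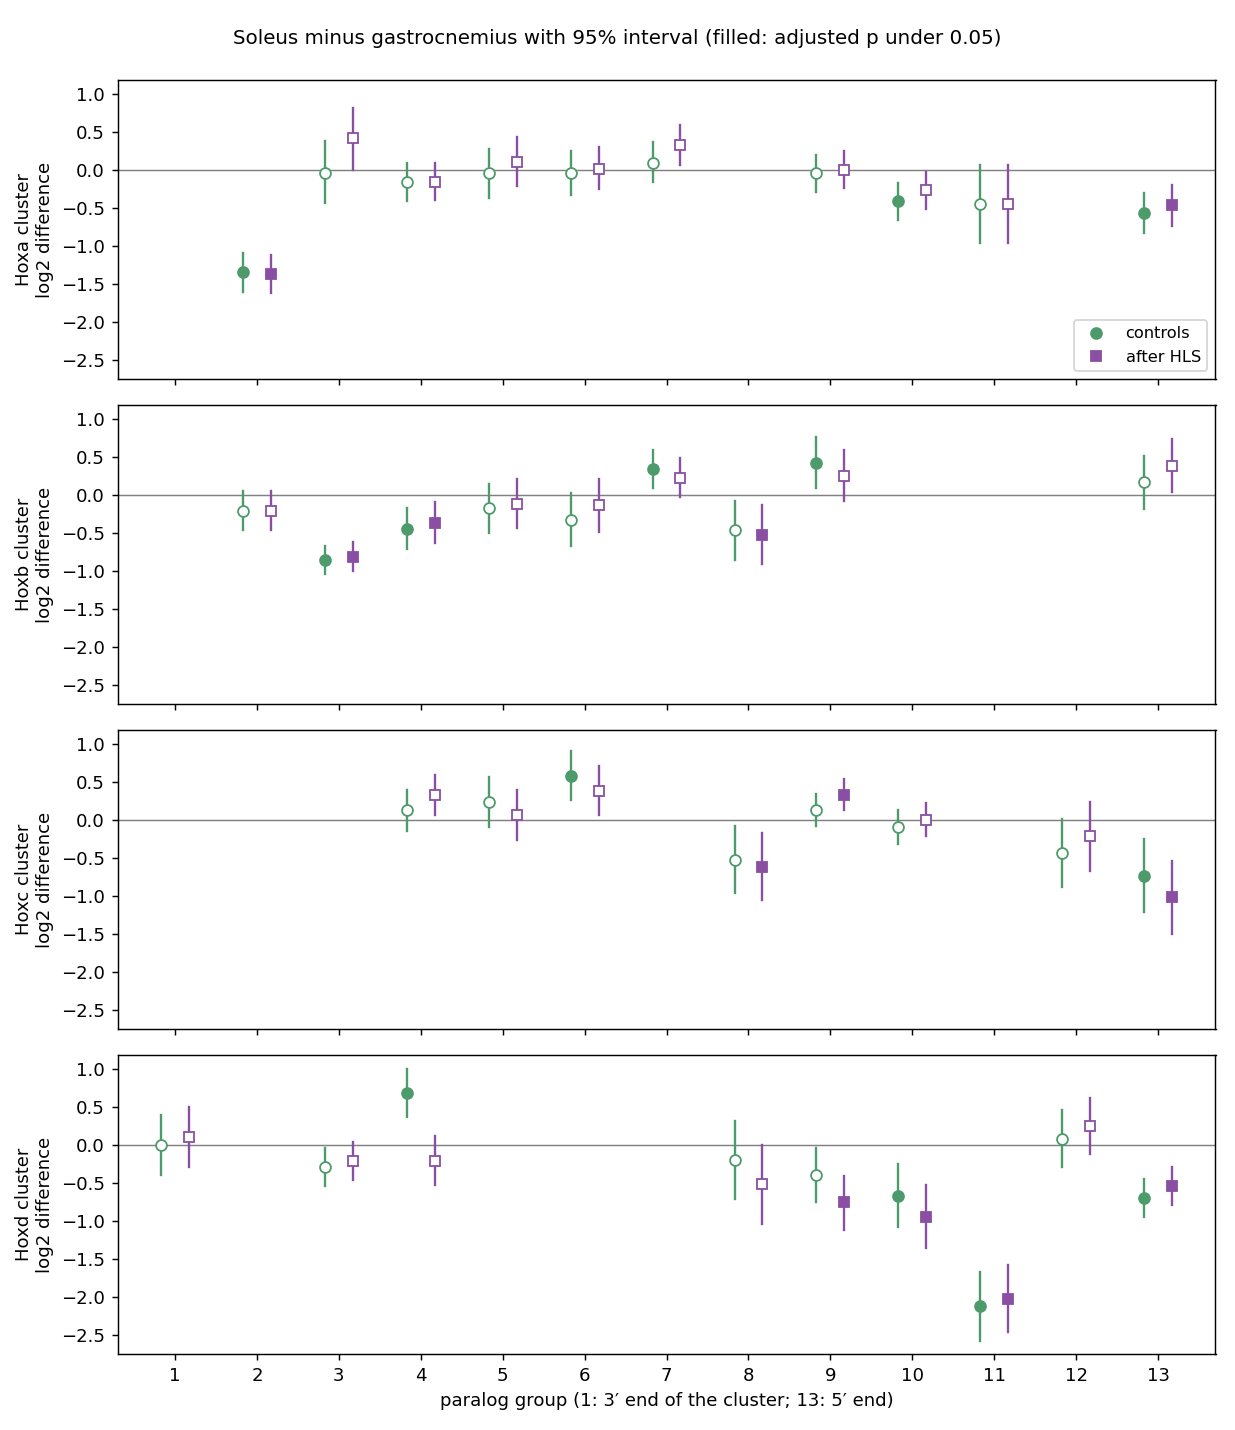
Difference in level between soleus and gastrocnemius (log2, vertical axis) for 36 of the 37 tested Hox genes by paralog group (horizontal axis), 1 panel per cluster, with 95% intervals. Green circles are the control animals, purple squares the suspended animals, filled where the adjusted p was under 0.05. Hoxd11, not well above background on 6 of 10 soleus arrays, is plotted lowest at -2.12 and -2.02, followed by Hoxa2 at -1.34 and -1.36.

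By cluster, 6 of 11 cluster A genes passed (2 higher, 4 lower in soleus), 5 of 9 in B (2 and 3), 5 of 8 in C (3 and 2) and 5 of 9 in D (0 and 5). By position, 4 of 7 genes of paralog groups 1 to 3 passed, 7 of 15 of groups 4 to 8 and 10 of 15 of groups 9 to 13. In cluster D, Hoxd9, Hoxd10, Hoxd11 and Hoxd13 were lower in soleus and Hoxd12, between them, was not called at 0.17 (adjusted p = 0.26). Hoxd12 was called higher with quantile normalization (0.38, adjusted p = 0.0057) and median scaling (0.33, adjusted p = 0.017). Over all genes 49.1% passed, 20.7% higher and 28.3% lower, and with so few genes in each class nothing is read from these counts. Whether clusters or positions differ from each other was not tested.

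Of the 5′ genes, Hoxd11 was measured well above background in gastrocnemius and on 4 of 10 soleus arrays. Hoxd11 patterns the lower leg and forearm with Hoxa11. Hoxd11 read -2.27, -2.14, -2.01, -2.34 and -1.97 in control gastrocnemius and -2.13, -1.83, -2.32, -2.16 and -1.57 in suspended gastrocnemius. In soleus, Hoxd11 read -3.44, -4.10, -4.35, -4.71 and -4.74 in controls and -4.49, -3.66, -4.32, -3.77 and -3.86 after suspension. Hoxd11 was not well above background on soleus control 3, 4 and 5 and soleus HLS 1, 3 and 5. All 10 gastrocnemius levels lay above all 10 soleus levels, and the soleus animals spread more widely. The fitted difference for Hoxd11, soleus minus gastrocnemius, was -2.07 (SE 0.15, adjusted p = 8.5e-09), and Hoxd11 was lower in soleus in each of the 10 animals. Its size is uncertain, since 6 of the 10 soleus values were not well above background and Hoxd11 was tested through its gastrocnemius level. With normexp background correction, which pulls dim values together, the difference was -0.94 (adjusted p = 3.2e-07), beside -0.90 for Hoxa2.

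Hoxd10 specifies the hip region and lumbar motor neurons. Hoxd10 read -1.14, -1.09, -1.11, -1.01 and -1.31 in control gastrocnemius and -0.84, 0.17, -1.17, -1.10 and -0.75 in suspended gastrocnemius. In soleus, Hoxd10 read -1.61, -2.02, -1.60, -1.96 and -1.75 in controls and -1.98, -1.92, -1.81, -1.27 and -1.39 after suspension. Within each arm the muscles did not overlap, although suspended gastrocnemius animal 2 stood above its group at 0.17. Hoxd10 was lower in soleus by -0.80 (SE 0.14, 1.74-fold, adjusted p = 1.1e-04) and lower in 10 of 10 animals. RefSeq's models of Hoxd10 and Hoxd11 overlap, so their probes may share transcripts.

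Hoxd13 acts with Hoxa13 in the hand and foot. Hoxd13 read -1.32, -1.64, -1.42, -1.06 and -1.38 in control gastrocnemius and -1.33, -1.22, -1.11, -1.50 and -1.13 in suspended gastrocnemius. In soleus, Hoxd13 read -2.29, -1.97, -1.92, -2.18 and -1.90 in controls and -1.90, -2.02, -1.58, -1.87 and -1.63 after suspension. Each arm again separated the muscles. The soleus level was lower by -0.61 (SE 0.09, 1.53-fold, adjusted p = 9.6e-06), in 10 of 10 animals. A dimmer Hoxd13 probe gave 0.05 (adjusted p = 0.74), so the 2 probes disagreed and their mean gave -0.28 (adjusted p = 0.0053).

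Hoxd9 patterns the thigh. Hoxd9 read -1.57, -0.86, -1.17, -0.75 and -1.82 in control gastrocnemius and -0.64, -0.44, -0.83, -1.14 and -0.58 in suspended gastrocnemius. In soleus, Hoxd9 read -1.59, -1.74, -1.42, -1.72 and -1.65 in controls and -1.28, -1.47, -1.60, -1.44 and -1.61 after suspension. The suspended groups did not overlap, while the control gastrocnemius animals spread over the soleus range. Hoxd9 was lower by -0.57 (adjusted p = 6.4e-04), and its other probe by -0.49 (adjusted p = 0.0014).

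Hoxa13, the cluster A counterpart of Hoxd13, behaved likewise at its brightest probe. Hoxa13 read 0.41, 0.41, 0.49, 0.38 and 0.55 in control gastrocnemius and 0.39, 0.60, 0.39, 0.58 and 0.56 in suspended gastrocnemius. In soleus, Hoxa13 read -0.02, 0.29, -0.22, -0.14 and -0.49 in controls and 0.00, -0.13, -0.10, -0.01 and 0.44 after suspension. Suspended soleus animal 5 was the only soleus array within the gastrocnemius range. The brightest Hoxa13 probe was lower in soleus by -0.51 (SE 0.09, 1.43-fold, adjusted p = 1.0e-04) and in 10 of 10 animals, but the second probe gave 0.01 (adjusted p = 0.94) and the mean of both gave -0.25 (adjusted p = 0.017).

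Hoxc13, needed for hair and nails, was dim in both muscles. Hoxc13 read -3.45, -3.58, -2.93, -2.99 and -2.71 in control gastrocnemius and -2.66, -3.05, -2.46, -3.37 and -3.01 in suspended gastrocnemius. In soleus, Hoxc13 read -3.65, -3.93, -3.98, -3.74 and -4.01 in controls and -3.77, -3.46, -4.37, -3.38 and -4.64 after suspension. Hoxc13 was not well above background on gastrocnemius control 4, gastrocnemius HLS 4, soleus control 3 and soleus HLS 3 and 5. The muscles did not overlap within either arm, by 0.01 in the suspended one. Hoxc13 was lower in soleus by -0.87 (SE 0.16, 1.83-fold, adjusted p = 1.8e-04), by -0.32 with normexp correction.

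Hoxa10, a thigh gene, and Hoxa11, the lower leg partner of Hoxd11, were lower by less. Hoxa10 read 0.29, 0.33, 0.37, 0.45 and 0.44 in control gastrocnemius and 0.49, 0.12, 0.06, 0.10 and 0.04 in suspended gastrocnemius. In soleus, Hoxa10 read -0.29, -0.20, 0.08, 0.14 and 0.10 in controls and -0.07, 0.14, -0.17, 0.00 and -0.41 after suspension. Control muscles did not overlap and suspended ones did. Hoxa10 was lower by -0.34 (adjusted p = 0.0024), a call lost with median scaling at -0.18 (adjusted p = 0.12). Hoxa11 read -0.12, 0.14, -0.28, 0.21 and 0.51 in control gastrocnemius and 0.37, -0.68, 0.04, 0.06 and -0.23 in suspended gastrocnemius. In soleus, Hoxa11 read -0.58, -0.19, -0.07, -0.04 and -0.90 in controls and -1.46, -0.48, -0.01, -0.10 and -0.62 after suspension. The Hoxa11 ranges overlapped in both arms. The difference of -0.45 (adjusted p = 0.04) was not called with the animal as a block (adjusted p = 0.071), with quantile or median scaling (-0.42 and -0.29), or without any 1 of 11 arrays (-0.45 to -0.33, adjusted p 0.051 to 0.078): gastrocnemius control 2, 4 and 5, gastrocnemius HLS 1, 3 and 4, soleus control 1 and 5, and soleus HLS 1, 2 and 5.

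Hoxb9 and Hoxc9, which mark thoracic levels, went the other way from Hoxd9. Hoxb9 read -1.61, -1.89, -2.18, -1.25 and -1.73 in control gastrocnemius and -1.70, -1.76, -1.38, -1.57 and -1.64 in suspended gastrocnemius. In soleus, Hoxb9 read -1.25, -1.01, -1.23, -1.52 and -1.48 in controls and -0.96, -1.39, -1.81, -1.39 and -1.19 after suspension. Hoxb9 ranges overlapped, with most soleus animals above the gastrocnemius median. Hoxb9 was higher in soleus by 0.35 (adjusted p = 0.017), and its dimmer probe by 0.54 (adjusted p = 0.0012). Hoxc9 read 2.34, 2.40, 2.43, 2.55 and 2.51 in control gastrocnemius and 2.79, 2.50, 2.38, 2.49 and 2.65 in suspended gastrocnemius. In soleus, Hoxc9 read 2.64, 2.57, 2.51, 2.59 and 2.65 in controls and 2.67, 2.85, 2.94, 3.20 and 2.82 after suspension. Suspended soleus stood highest, above all 5 control soleus arrays. Hoxc9 was higher by 0.24 (adjusted p = 0.0087), a difference of 0.09 with quantile normalization (adjusted p = 0.28).

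Among the 5′ genes that were not called, Hoxa9 differed by -0.02, Hoxc10, a hind limb and lumbar gene, by -0.04, Hoxc12 by -0.32, Hoxd12 by 0.17 and Hoxb13, a tail and prostate gene, by 0.28 (adjusted p 0.058 to 0.87). Hoxb13 was called higher with median scaling (0.43, adjusted p = 0.0025), quantile normalization (0.30, adjusted p = 0.043) and normexp correction (0.25, adjusted p = 0.039). It was also called without gastrocnemius control 1 or 5, gastrocnemius HLS 1, soleus control 5 or soleus HLS 4. Median scaling and quantile normalization called Hoxd12 higher (0.33 and 0.38). Hoxc12 was called lower without soleus control 1 (-0.41, adjusted p = 0.021). A dimmer Hoxc10 probe was lower in soleus by -0.56 (adjusted p = 8.4e-06), unlike the brightest one, and the mean of both gave -0.30 (adjusted p = 9.7e-04).

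**Figure D2:**
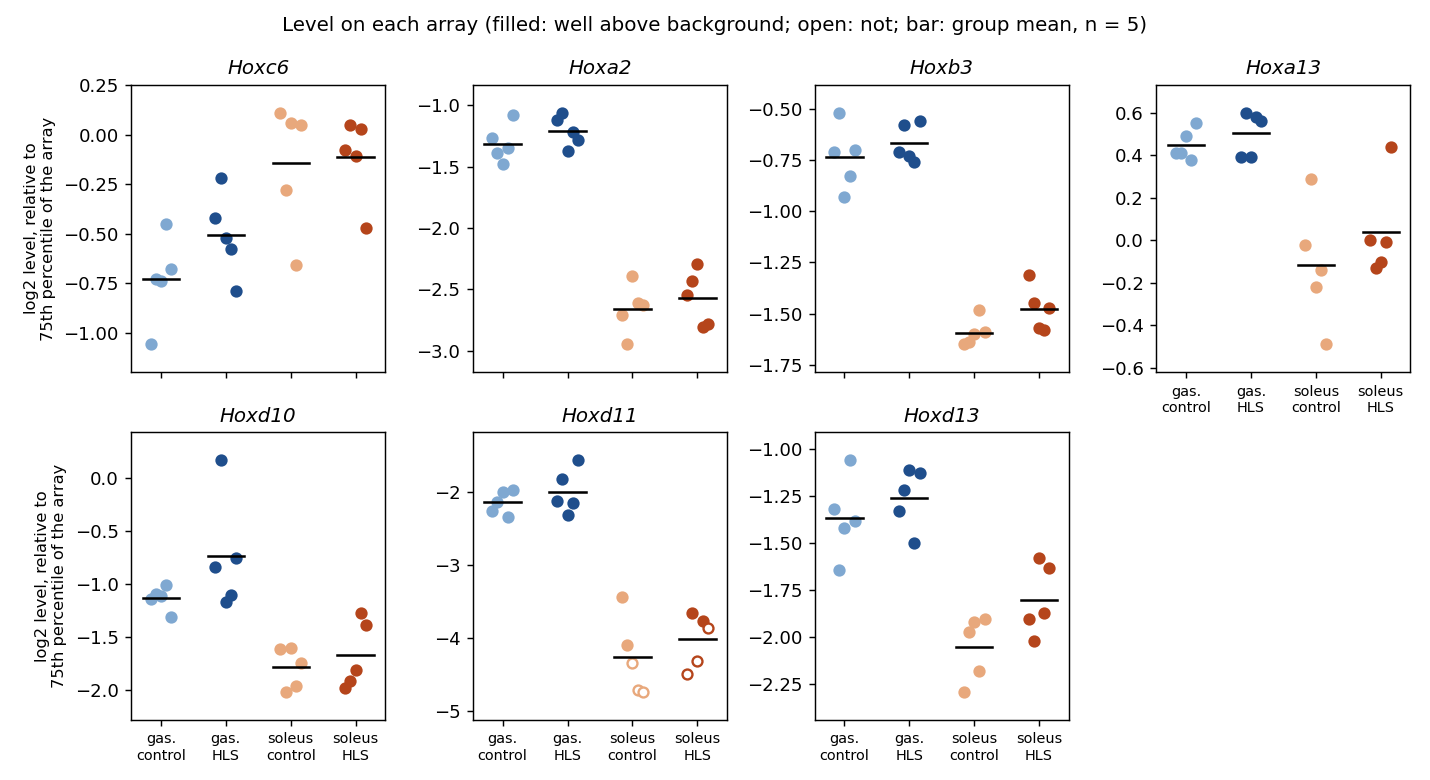
Level on each array (vertical axis, log2 scale, with the array's 75th percentile at 0) for 7 Hox genes, by group of 5 arrays (horizontal axis). Their call in the mean of both arms was kept under every alternative fitted to them. Spike-in scaling, which would move every such difference by 0.54, was not fitted gene by gene. Hoxd11 was not tested where a gene had to be well above background on all arrays. Bars are group means and open points are arrays not well above background. Hoxa2, Hoxb3 and Hoxd11 do not overlap between the muscles, and Hoxc6 has the higher mean in soleus.

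At the 3′ end, Hoxa2 had the lowest adjusted p of the Hox genes. Hoxa2 patterns the hindbrain and the facial skeleton. Hoxa2 read -1.27, -1.39, -1.48, -1.35 and -1.08 in control gastrocnemius and -1.12, -1.06, -1.37, -1.22 and -1.28 in suspended gastrocnemius. In soleus, Hoxa2 read -2.71, -2.95, -2.39, -2.61 and -2.63 in controls and -2.55, -2.43, -2.29, -2.81 and -2.78 after suspension. No soleus array reached any gastrocnemius array. Hoxa2 was lower in soleus by -1.35 (SE 0.09, 95% interval -1.53 to -1.18, 2.55-fold, adjusted p = 2.2e-09), and by -0.91 to -1.59 in the 10 animals. With normexp correction it was lower by -0.90.

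Hoxb3, which acts in the hindbrain and pharyngeal glands, also split the muscles. Hoxb3 read -0.71, -0.52, -0.93, -0.83 and -0.70 in control gastrocnemius and -0.71, -0.58, -0.73, -0.76 and -0.56 in suspended gastrocnemius. In soleus, Hoxb3 read -1.65, -1.64, -1.60, -1.48 and -1.59 in controls and -1.31, -1.45, -1.57, -1.58 and -1.47 after suspension. The 20 arrays fell into separate ranges for the muscles, each narrow. Hoxb3 was lower by -0.83 (SE 0.06, 95% interval -0.96 to -0.70, 1.78-fold, adjusted p = 1.2e-08) in 10 of 10 animals. Its RefSeq model overlaps that of Hoxb4. Between all 10 arrays of 1 muscle and all 10 of the other, Hoxa2, Hoxb3 and Hoxd11 were the 3 Hox genes without overlap, all lower in soleus, where 4.79% of all genes were lower without overlap and 1.71% higher.

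Hoxd3, which shapes the upper neck vertebrae, closed the list at this end. Hoxd3 read -0.88, -0.88, -0.86, -1.31 and -0.93 in control gastrocnemius and -0.96, -0.71, -1.0, -1.02 and -0.93 in suspended gastrocnemius. In soleus, Hoxd3 read -1.23, -1.18, -1.10, -1.36 and -1.45 in controls and -0.86, -1.11, -1.30, -1.41 and -0.92 after suspension. Its ranges overlapped in both arms. Hoxd3 was lower by -0.24 (adjusted p = 0.022), a call lost with median scaling (-0.09), quantile normalization (-0.12) and the mean of its 2 probes (-0.10). Hoxa3 at 0.19, Hoxb2 at -0.20 and Hoxd1 at 0.06 were not called (adjusted p 0.064 to 0.74). Hoxa3 was called higher with quantile normalization (0.41, adjusted p = 0.013) and median scaling (0.35, adjusted p = 0.027). Hoxb2 was called lower without soleus control 5 (-0.24, adjusted p = 0.025) or soleus HLS 1 (-0.23, adjusted p = 0.03).

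In the middle of the clusters, Hoxc6 kept its call in the mean of the arms under every alternative fitted. Within the arms it was called in controls, a call lost when blocked by scan day (adjusted p = 0.21), and not after HLS (adjusted p = 0.057). Hoxc6 is a thoracic and forelimb-level gene. Hoxc6 read -1.06, -0.73, -0.74, -0.45 and -0.68 in control gastrocnemius and -0.42, -0.22, -0.52, -0.58 and -0.79 in suspended gastrocnemius. In soleus, Hoxc6 read 0.11, -0.28, 0.06, -0.66 and 0.05 in controls and -0.08, 0.05, -0.11, 0.03 and -0.47 after suspension. Soleus control animals 2 and 4 and suspended animal 5 lay within the gastrocnemius range, and the others above it. Hoxc6 was higher in soleus by 0.49 (SE 0.11, 95% interval 0.26 to 0.72, 1.4-fold, adjusted p = 9.4e-04) in 9 of 10 animals.

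Hoxb4, known for its use in blood stem cells, was lower. Hoxb4 read -0.22, -0.01, -0.16, -0.13 and 0.04 in control gastrocnemius and -0.04, 0.08, -0.21, -0.27 and 0.02 in suspended gastrocnemius. In soleus, Hoxb4 read -0.53, -0.12, -0.78, -0.61 and -0.66 in controls and -0.41, -0.38, -0.49, -0.82 and -0.12 after suspension. Soleus control 2 and soleus HLS 5 lay among the gastrocnemius arrays. Hoxb4 was lower by -0.40 (adjusted p = 0.0013) in 10 of 10 animals.

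Hoxb7 and Hoxa7, both of paralog group 7 and thoracic in use, were higher. Hoxb7 read -1.50, -1.39, -1.14, -1.11 and -1.17 in control gastrocnemius and -1.36, -1.48, -0.96, -1.47 and -1.44 in suspended gastrocnemius. In soleus, Hoxb7 read -0.99, -1.0, -0.78, -0.78 and -1.04 in controls and -1.17, -1.01, -0.98, -0.95 and -1.43 after suspension. Control muscles did not overlap. Hoxb7 was higher by 0.29 (adjusted p = 0.0085). Hoxa7 read 1.62, 1.79, 1.52, 1.86 and 1.80 in control gastrocnemius and 2.02, 1.54, 1.78, 1.70 and 1.38 in suspended gastrocnemius. In soleus, Hoxa7 read 2.14, 1.58, 1.80, 1.77 and 1.81 in controls and 2.19, 1.98, 2.04, 2.14 and 1.75 after suspension. The ranges of Hoxa7 overlapped in both arms. Hoxa7 was higher by 0.22 (adjusted p = 0.049), which was lost with quantile normalization (0.09, adjusted p = 0.37) and without any 1 array other than gastrocnemius control 4, gastrocnemius HLS 1, soleus control 2 or soleus HLS 5 (16 arrays, adjusted p 0.052 to 0.1).

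Hoxb8 and Hoxc8, genes of trunk levels, were lower together. Hoxb8 read -1.64, -1.50, -1.68, -1.61 and -1.64 in control gastrocnemius and -1.45, -1.40, -1.70, -1.03 and -1.52 in suspended gastrocnemius. In soleus, Hoxb8 read -2.33, -1.94, -1.74, -2.80 and -1.57 in controls and -1.76, -2.23, -2.26, -1.68 and -1.78 after suspension. Suspended and control ranges of Hoxb8 overlapped between the muscles, with soleus control 4 lowest. Hoxb8 was lower by -0.49 (adjusted p = 0.0045), and its dimmer probe, above background on 12 arrays, by -1.06 (adjusted p = 0.0067). Hoxc8 read -3.33, -3.13, -2.86, -3.23 and -2.94 in control gastrocnemius and -3.79, -2.71, -2.48, -3.31 and -3.40 in suspended gastrocnemius. In soleus, Hoxc8 read -3.42, -3.55, -3.35, -3.74 and -4.03 in controls and -4.24, -3.82, -3.77, -3.52 and -3.39 after suspension. Hoxc8 was not well above background on gastrocnemius control 4, gastrocnemius HLS 1, 4 and 5 and soleus HLS 1 and 3. Every Hoxc8 soleus level was below the gastrocnemius median. Hoxc8 was lower by -0.56 (adjusted p = 0.0039), a call lost with quantile normalization (-0.33, adjusted p = 0.057) and normexp correction (-0.22, adjusted p = 0.068).

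Hoxc4, a neck-level gene, was higher by a small step. Hoxc4 read -1.54, -2.04, -1.84, -1.67 and -1.74 in control gastrocnemius and -2.00, -1.75, -1.73, -1.54 and -1.38 in suspended gastrocnemius. In soleus, Hoxc4 read -1.59, -1.85, -1.39, -1.57 and -1.78 in controls and -1.19, -1.54, -1.48, -1.17 and -1.35 after suspension. The muscles overlapped. Hoxc4 was higher by 0.23 (adjusted p = 0.04), which was lost with normexp correction (0.11) and without any 1 of 10 arrays (adjusted p 0.059 to 0.08): gastrocnemius control 2 and 3, gastrocnemius HLS 1, 2 and 3, soleus control 1, 3 and 4, and soleus HLS 1 and 4.

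The middle genes that were not called in the mean of the arms were Hoxa4 (-0.15), Hoxa5 (0.03), Hoxa6 (0.00), Hoxb5 (-0.14), Hoxb6 (-0.22), Hoxc5 (0.16), Hoxd4 (0.24) and Hoxd8 (-0.35), with adjusted p from 0.066 to 0.98. Quantile and median scaling called Hoxc5 (0.34 and 0.31) and Hoxd4 (0.33 and 0.40) higher (adjusted p 0.0033 to 0.017). The animal block also called Hoxd4 (0.24, adjusted p = 0.04), as did leaving out some single arrays. Normexp correction called Hoxd8 lower (-0.36, adjusted p = 0.023), as did leaving out gastrocnemius control 5 or HLS 4. Hoxb6 was called lower without soleus HLS 1 (-0.29, adjusted p = 0.04). A dimmer probe of Hoxb6 was higher by 0.21 (adjusted p = 0.034), against the direction of the brightest.

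Scan day could be set beside the muscle difference in part. A block by scan day takes its step from day 1 to day 2 from gastrocnemius HLS alone. In that group only animal 1 was scanned on day 1, so the step rests on 1 array. With this block 11 of the 21 calls were kept, among them Hoxa2, Hoxa7, Hoxa13, Hoxb3, Hoxc6, Hoxc8, Hoxc9, Hoxd10, Hoxd11 and Hoxd13. The other 10 calls were lost (adjusted p 0.097 to 0.89), with Hoxa10 at -0.06 and Hoxc4 at -0.04. Within day 2, 3 suspended soleus arrays could be set against 4 suspended gastrocnemius arrays. There Hoxd11 differed by -2.18, Hoxa2 by -1.19, Hoxd10 by -1.19, Hoxb3 by -0.79, Hoxa13 by -0.61, Hoxd13 by -0.59 and Hoxc6 by 0.48, each on the same side of 0 as over all arrays. Control muscles shared no scan day, so controls have no within-day value.

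**Figure D3:**
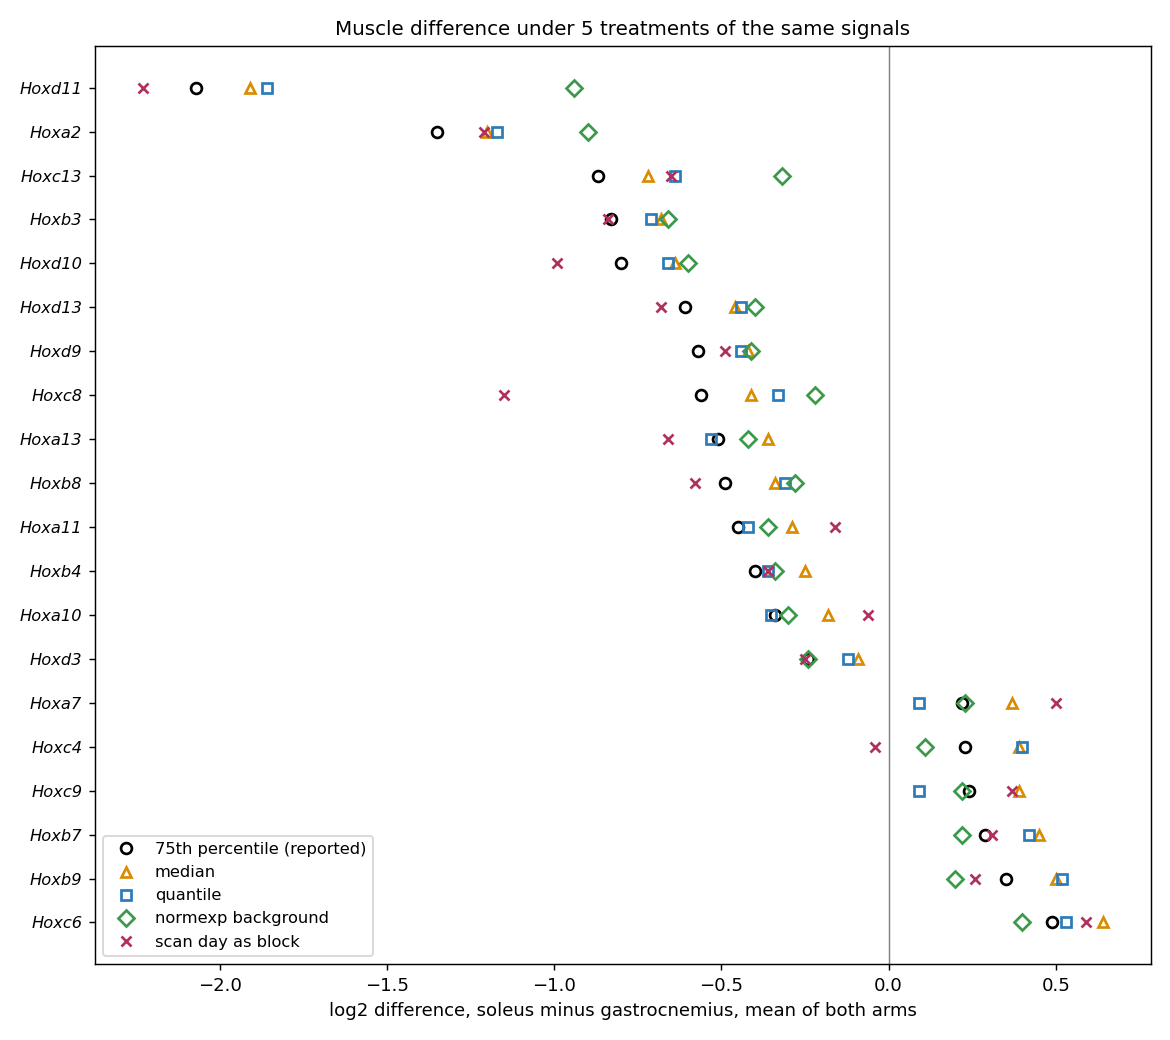
Soleus minus gastrocnemius (log2, horizontal axis, mean of both arms) for 20 of the 21 called Hox genes (vertical axis) under 5 treatments of the same signals, 1 symbol each. Hoxd11 moves furthest, from -2.07 as reported to -0.94 with normexp correction, and Hoxc4 crosses 0 with scan day as a block.

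The comparison of suspended with control animals asks whether 24 h without load changes Hox transcripts. At the brightest probe of each gene, 1 of 37 Hox genes passed in soleus (2.70%), where 5.91% of all genes did. In gastrocnemius 0 of 37 passed by limma, with 2 at an unadjusted p under 0.05 (Hoxd4 and Hoxd9), where 3.15% of all genes passed. At the scaling used here, all 37 intervals of the brightest probes lay within 1 log2 unit of 0 in both muscles. They ran from -0.89 to 0.81 in soleus and from -0.69 to 0.87 in gastrocnemius. The median change was 0.11 in soleus and 0.06 in gastrocnemius, beside 0.05 and 0.01 over all genes. Scaling to the spike-in RNA would move every suspended minus control difference by -0.26 in soleus and 0.78 in gastrocnemius, all genes alike. The difference between the muscles' responses would move by -1.04. The bound of 1 log2 unit would not hold in either muscle under that scaling.

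The gene that passed at its brightest probe was Hoxd4, which patterns the hindbrain and neck vertebrae. Hoxd4 read -1.27, -1.10, -1.05, -1.04 and -0.76 in control gastrocnemius and -0.75, -0.50, -0.71, -0.84 and -0.82 in suspended gastrocnemius. In soleus, Hoxd4 read -0.76, -0.13, 0.02, -0.82 and -0.07 in controls and -0.74, -0.78, -1.06, -1.05 and -1.0 after suspension. Control soleus animals 2, 3 and 5 stood above all suspended soleus arrays, and control animals 1 and 4 lay among them. Hoxd4 fell in soleus by 0.57 on the log2 scale after HLS (SE 0.15, 95% interval -0.89 to -0.26, 1.49-fold, adjusted p = 0.027). With slide as a block, a fit that rests on soleus control 5 alone among the controls, the call was lost (-0.78). The call was lost too with only the 2 soleus groups in the fit (adjusted p = 0.14) and when blocked by scan day (-0.51, adjusted p = 0.18). Within scan day 2 it was lost as well (-0.51, 3 against 5 arrays, adjusted p = 0.44). It was also lost without soleus control 2, 3 or 5 or soleus HLS 3, 4 or 5 (-0.56 to -0.48, adjusted p 0.059 to 0.081). RefSeq's models of Hoxd4 and Hoxd3 overlap.

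Dimmer probes added calls. Of the 11 dimmer Hox probes tested, 2 passed in soleus after HLS, both higher, where 5.42% of all probes did when each was fitted on its own, and 0 passed in gastrocnemius by limma, with 2 at an unadjusted p under 0.05. The first reads Hoxa4, which patterns the hindbrain and neck. The dimmer Hoxa4 probe read -2.57, -3.18, -2.44, -2.84 and -2.22 in control soleus and -1.30, -1.34, -1.70, -2.13 and -1.92 in suspended soleus, all well above background. Every suspended array stood above every control array. This probe rose by 0.97 on the log2 scale (SE 0.20, 95% interval 0.56 to 1.38, adjusted p = 0.0044), and differed by 0.62 in gastrocnemius (adjusted p = 0.11). Its call was kept when blocked by scan day (1.20, adjusted p = 0.002), within scan day 2 (1.20, adjusted p = 0.03), under each scaling and without any 1 soleus array (0.84 to 1.08). It ended when slides were blocked (0.78), a fit that rests on soleus control 5 alone among the controls. The brightest Hoxa4 probe gave 0.09 (adjusted p = 0.78), so the 2 probes disagreed, and their mean gave 0.53 (adjusted p = 0.0067). RefSeq's models of Hoxa4 and Hoxa3 overlap.

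The second reads Hoxb6, a gene of trunk levels. The dimmer Hoxb6 probe read -1.15, -0.75, -0.66, -0.96 and -1.07 in control soleus and -0.53, -0.47, -0.46, -0.49 and -0.59 in suspended soleus. These groups did not overlap either. This probe rose by 0.41 (SE 0.11, adjusted p = 0.032), while the brightest gave 0.04 (adjusted p = 0.93). When slides were blocked, which again rests on soleus control 5 alone among the controls, the call was lost (0.59). The call was lost too with quantile (0.34, adjusted p = 0.079) and median scaling (0.35, adjusted p = 0.1) and when blocked by scan day (0.43, adjusted p = 0.11). The same held within scan day 2 (0.43, adjusted p = 0.3) and with only the soleus groups in the fit (adjusted p = 0.13). The call was also lost without soleus control 1, 4 or 5 or soleus HLS 2, 3 or 4 (0.35 to 0.40, adjusted p 0.056 to 0.091).

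In gastrocnemius Hoxd4 differed by 0.32 (adjusted p = 0.34), and the difference between the muscles' responses was -0.89 (SE 0.22, unadjusted p = 4.9e-04, adjusted p = 0.3). For that difference 0 Hox genes passed, and 1 (Hoxd4) did at an unadjusted p under 0.05, where 0.00783% of all genes passed. Hoxd4 was also higher in soleus than in gastrocnemius in controls, by 0.69 (adjusted p = 0.0018), a call that blocking by scan day ended (adjusted p = 0.23), and -0.20 apart after HLS (adjusted p = 0.33). Hoxc9 was 0.31 higher in suspended than in control soleus without overlap (adjusted p = 0.081), where 2.20% of all genes were higher without overlap. It passed with quantile normalization (0.36, adjusted p = 0.023) and without soleus HLS 1 (adjusted p = 0.04). Hoxd9 differed by 0.51 in gastrocnemius (adjusted p = 0.13).

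**Figure D4:**
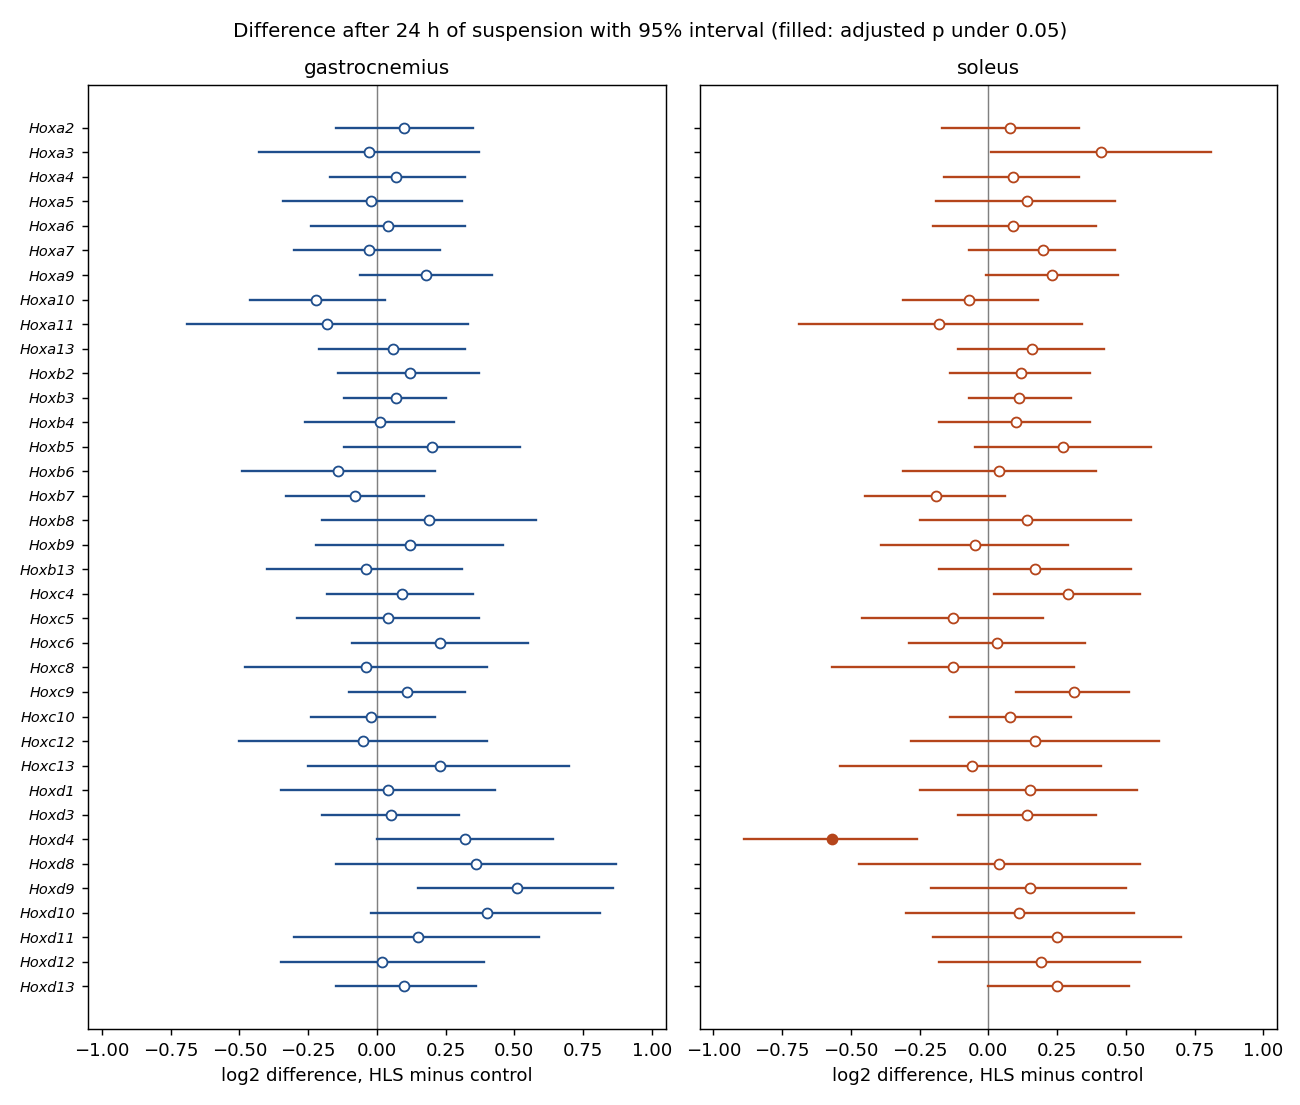
Suspended minus control (log2, horizontal axis) for the brightest probe of 36 of the 37 tested Hox genes (vertical axis) in gastrocnemius and soleus, with 95% intervals. The filled point, Hoxd4 in soleus at -0.57, has the 1 adjusted p under 0.05, and every interval lies between -0.89 and 0.87.

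Genes that work with or on the Hox clusters were counted from lists, in the mean of the arms, beside the 20.7% of genes higher and 28.3% lower in soleus. Of 12 TALE cofactors, the homeodomain partners that Hox proteins bind DNA with, 1 was higher (Pbx2, 0.25) and 3 were lower (Meis3 -0.45, Pknox2 -0.31, Tgif1 -0.30). Pbx3 (0.06), Meis1 (0.17) and Meis2 (0.11) were not called. The cofactor split of 1 and 3 became 6 and 1 with median scaling, 2 and 1 with quantile normalization, and 0 and 1 when blocked by scan day. The 41 Polycomb and Trithorax genes, which keep Hox genes silent or active, had 12 higher, led by Cbx7 (0.66), Phf1 (0.58) and Mtf2 (0.51), and 9 lower, led by Phc3 (-0.58), Pcgf2 (-0.50) and Pcgf3 (-0.50). Ezh2, the Polycomb methyltransferase, was not called at 0.18. The Polycomb and Trithorax split of 12 and 9 became 18 and 6, 10 and 8, and 5 and 2 under the same 3 treatments.

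Of 31 limb patterning genes 6 were higher in soleus, among them Tbx3 (0.83) and Pitx1 (0.67), the hind limb identity gene, and 14 were lower, led by Six2 (-1.02), Osr2 (-0.92) and En1 (-0.82). Tbx4, the hind limb partner of Pitx1, was lower by -0.64 (adjusted p = 3.1e-04), and Tbx5, its forelimb counterpart, by -0.66 (adjusted p = 2.0e-07). The split was 11 and 11 with quantile normalization and with median scaling. Blocked by scan day, 3 were higher and 8 lower, with the Pitx1 call lost (adjusted p = 0.31) and those of Tbx4 and Tbx5 kept.

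Of 26 genes next to or antisense to the clusters, 9 were higher, led by Evx2 (1.08), the homeobox gene beside Hoxd13, Hnrnpa1 (0.72) and Atp5g3 (0.59), and 5 lower, led by Skap1 (-0.72), Snx11 (-0.46) and Hoxd3os1 (-0.38). Evx2 thus stood on the other side from Hoxd13, although blocking by scan day ended its call (adjusted p = 0.087). Upstream regulators and ParaHox genes had 1 of 20 higher (Rad21, 0.28) and 6 lower, led by Cdx2 (-1.15), Gsx2 (-0.79) and Cyp26a1 (-0.67). Genes named as targets of Hox factors had 5 of 20 higher, led by Angpt2 (0.71), Mmp14 (0.65) and Thbs2 (0.50), and 6 lower, led by Epha3 (-0.90), Igfbp1 (-0.65) and Fgf2 (-0.65). With median scaling the higher and lower counts were 14 and 3 for the neighbours, 5 and 5 for the upstream genes and 7 and 6 for the targets. With quantile normalization they were 10 and 4, 1 and 4, and 6 and 5. Blocked by scan day they were 5 and 1, 1 and 4, and 2 and 5.

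After HLS, 10 of the 150 tested genes of these 6 lists passed in soleus, 3 higher and 7 lower (6.67%, where 5.91% of all genes did), and 9 in gastrocnemius, 4 higher and 5 lower (6.00%, where 3.15% did). The TALE cofactors had 0 of 12 in each muscle by limma (1 in each at an unadjusted p under 0.05), the Polycomb and Trithorax genes 1 of 41 in each, and the limb genes 2 of 31 in soleus and 1 in gastrocnemius. Aldh1a2, which makes retinoic acid, the signal that switches on 3′ Hox genes in the embryo, fell by 1.09 in soleus (adjusted p = 1.6e-04) and by 0.78 in gastrocnemius (adjusted p = 0.0065). Cyp26a1, which breaks retinoic acid down, fell by 0.78 in gastrocnemius. Cbx7, a Polycomb reader, rose by 0.80 in soleus and 0.68 in gastrocnemius. Cdkn1a, a cell cycle inhibitor, rose by 1.31 and 1.76, and Vegfa, an angiogenic factor, fell by 1.51 and 1.20. In gastrocnemius all controls were scanned on day 1 and suspended animals 2 to 5 on day 2, so arm and scan day nearly coincide there. The part of scan day or slide in the changes of these listed genes was not tested.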

How the data were processed

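The 20 one-colour (Cy3) arrays came as 1 scanner file each, and per the file headers the deposited intensity values were made with Agilent Feature Extraction 9.1.3.1, which subtracts background and detrends within an array without scaling between arrays. The authors' series table holds the same processed intensity values and was used as an alternative. No genome build was given in the sources used here.

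Processed signals had control spots and outlier spots removed, were log2 transformed and had the 75th percentile of their array subtracted. Spots of a probe were averaged and the brightest probe per gene kept. Genes were tested where 4 or more of the 5 arrays of a group had the software's mark for signal well above background. A means model of the 4 groups was fitted over all genes with lmFit and eBayes (limma 3.58.1, R 4.3.3) and p-values were adjusted by Benjamini-Hochberg over 25535 genes, with a two-sided threshold of 0.05. The fit was tested on simulated data. The members, lists and tests were chosen with earlier results of these data known. Members are named, except 1 that, like 2 genes of the other lists, is not reported here, members past the threshold in any comparison are given on every array, and up to 3 genes at each end of a list are named besides Pitx1, Tbx4, Tbx5, Pbx3, Meis1, Meis2, Pknox2 and Ezh2.

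The titles give each array a replicate number within its group, and muscles of the same arm and number were taken as the same animal. The counts by animal and the block by animal rest on this reading. Deviations from the group means correlated within animals at -0.345 to 0.172 over 10 pairs (median 0.0336). Correlation within slides was -0.0291 and within scan days 0.00323. The number of arrays limits the precision. Of 49 Hox probes, the accessions of 44 carried the same symbol in RefSeq and 5 were not found there. Promoters matched by symbol for 22 of the 38 members.

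Alternatives tried were normexp background correction (offset 50), quantile and median scaling, the series table, other filters and probe rules, only the groups compared, blocks by slide, by scan day and by animal, and leaving out each array. Only scan day 2, quantile normalization with a strict filter, and the fits of the dimmer Hoxa4 and Hoxb6 probes were added after seeing the data.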

Additional observations from a re-analysis of the deposited data

Results flagged for a closer look

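Of 143 groups of 5 arrays examined for 1 Hox gene each, 9 held an array far from the other 4, where chance gives about 1 in 20. In suspended soleus, animal 5 stood above its group for Hoxa13 (0.44, the others -0.13 to 0.00) and below it for Hoxa9 (-0.74, the others -0.35 to -0.20), and animal 4 stood low for Hoxa6 (-0.62, the others -0.14 to 0.03). In control soleus, animal 2 was high for Hoxb13 (0.52, the others -0.27 to -0.12). In suspended gastrocnemius, animal 1 was high for Hoxa10 (0.49, the others 0.04 to 0.12), animal 2 for Hoxd3 (-0.71, the others -1.02 to -0.93) and animal 3 for Hoxb7 (-0.96, the others -1.48 to -1.36). In control gastrocnemius, animal 4 was low for Hoxd3 (-1.31, the others -0.93 to -0.86) and animal 1 high for Hoxd12 (-1.79, the others -2.18 to -2.10). The suspended gastrocnemius animal 1 array was also the 1 of its group scanned on day 1, on which the scan day block rests. The causes were not tested.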

How the results depend on the processing

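Of 49 calls of a Hox gene in a comparison, followed through 1313 alternative fits, 1162 fits kept the call, 149 lost it and 2 reversed the sign, both with scan day as a block: Hoxa10 in controls at 0.00 and Hoxc4 in the mean of the arms at -0.04. That block also took the calls in controls from 14 to 4, in the mean of the arms from 21 to 11 and in suspended soleus from 1 to 0. Its step from day 1 to day 2 rests on 1 array, gastrocnemius HLS 1. In controls 11 calls were lost and Hoxc8 was added (-1.34, adjusted p = 0.039). The suspended soleus count of 1 became 2 with quantile normalization, with or without the strict filter (Hoxc9 added), and with the mean of all probes (Hoxa4 added). It became 0 with only the groups compared and within scan day 2. The Hoxd4 call was also lost with slide as a block (-0.78), which rests on soleus control 5 alone among the controls. The cause was not tested. The replicate block by animal gave 13 calls in controls, 12 after HLS, 21 in the mean of the arms and 0 for the difference of the responses, and lost Hoxb9 in controls (adjusted p = 0.1), Hoxc9 after HLS (adjusted p = 0.056) and Hoxa11 in the mean. It could not be fitted for suspended against control animals, which are different mice. Leaving out 1 array gave 12 to 15 calls in controls, 10 to 16 after HLS, 18 to 22 in the mean, 0 to 2 for HLS in soleus, and 0 to 0 in gastrocnemius and for the difference. Calls within 1 arm that single arrays ended were Hoxb7 (without gastrocnemius control 1 or 2 or soleus control 3 or 4, 0.29 to 0.32), Hoxb9 (7 arrays: gastrocnemius control 1, 2, 3 or 5 or soleus control 1, 2 or 3, 0.32 to 0.47) and Hoxc13 (gastrocnemius control 5, -0.62) in controls, and after HLS Hoxb4 (7 arrays: gastrocnemius HLS 1, 2 or 5 or soleus HLS 1 to 4, -0.38 to -0.26), Hoxb8 (gastrocnemius HLS 1, 2, 4 or 5 or soleus HLS 2 or 3, -0.54 to -0.42), Hoxc8 (gastrocnemius HLS 2 or 3 or soleus HLS 1 to 3, -0.60 to -0.44) and Hoxc9 (soleus HLS 4, 0.26). Slide could be fitted for the muscle comparisons only as a random block (15, 16 and 22 calls). That fit cannot tell slide from muscle, because each slide held 1 muscle. Signal over background limits Hoxc8, Hoxc13 and Hoxd11 most.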
